A study of Mus musculus with 7 samples.

Results

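Expression of the prostaglandin pathway was measured for 10 genes, 5 enzymes (Ptgs1, Ptgs2, Ptges, Ptgis and Hpgd) and 5 receptors (Ptger2, Ptger3, Ptger4, Ptgfr and Ptgir), in mouse uterine tissue after infusion of the chemokine CXCL12. The genes were taken by symbol, and all 10 were found, each on 1 of the 23282 rows of the deposited tables. The mice were 6-week-old C57BL/6 females with no genetic change, and 100 ng of recombinant human CXCL12 in 30 µl of saline was infused into the cavity of one uterine horn while saline was infused into the other. Whole uterine tissue gave 7 libraries, of which 2 were from saline-treated horns, 2 from CXCL12-treated horns at Day 3 and 3 from CXCL12-treated horns at Day 8. No label dates the saline-treated libraries or says which libraries came from 1 animal, so P values measure the spread between these libraries, which may be technical. The oestrous stage of the animals is not given in the sources used here. The human protein was given to mice with their own CXCL12, and the treated and control horns belonged to the same animals, so the saline-treated tissue had also been through surgery and infusion.

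Prostaglandins are local lipid mediators. Phospholipases free arachidonic acid from membranes, the cyclooxygenases Ptgs1 and Ptgs2 convert it to prostaglandin H2, and terminal synthases such as Ptges and Ptgis turn this into prostaglandin E2 and prostacyclin. Hpgd inactivates the products inside cells. Each product acts through its own G protein-coupled receptors, the EP receptors for prostaglandin E2 (Ptger2, Ptger3 and Ptger4 among them), FP for prostaglandin F2α (Ptgfr) and IP for prostacyclin (Ptgir). EP2, EP4 and IP raise cyclic AMP, EP3 mostly lowers it and FP mobilises calcium. In the mouse uterus the pathway is known for its part in implantation, decidualisation and contraction of the myometrium, and in the ovary FP is known for the regression of the corpus luteum.

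The results turned on 4 receptor genes, Ptger2, Ptger3 and Ptgir, which were the members past the thresholds between Day 8 and Day 3, and Ptgfr, whose mean was set by 1 library. Their promoters are shown because the results rest on these members. RefSeq promoters were matched by symbol for 9 of the 10 genes, Ptgis not among them, in build GRCm38.p6, and each window runs from 250 bases before the annotated start to 50 bases after it. Capitals mark every match, on either strand, to any of 7 motifs. These were the cyclic AMP response element TGACGTCA, its half-site TGACG, which lies within it, the half-site of the progesterone and glucocorticoid receptors AGAACA, that of the oestrogen receptors AGGTCA, the SF-1 site CAAGGTCA, which holds the oestrogen half-site, the TATA box TATAAA and the GC box GGGCGG.
Ptger2 (chr14:44987861-44988160, plus strand): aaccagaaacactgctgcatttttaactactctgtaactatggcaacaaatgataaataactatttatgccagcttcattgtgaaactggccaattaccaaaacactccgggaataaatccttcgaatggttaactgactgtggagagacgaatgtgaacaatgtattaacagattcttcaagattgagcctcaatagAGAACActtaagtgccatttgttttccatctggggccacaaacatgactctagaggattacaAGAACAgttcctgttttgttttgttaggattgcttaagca
Ptger3 (chr3:157566626-157566925, plus strand): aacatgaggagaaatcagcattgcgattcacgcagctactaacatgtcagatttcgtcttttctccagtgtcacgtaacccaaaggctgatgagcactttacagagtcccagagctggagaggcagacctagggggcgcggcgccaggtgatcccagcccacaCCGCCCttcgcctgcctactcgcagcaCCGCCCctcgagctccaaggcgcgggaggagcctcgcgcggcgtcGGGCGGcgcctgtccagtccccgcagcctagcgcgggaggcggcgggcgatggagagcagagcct
Ptgir (chr7:16906240-16906539, plus strand): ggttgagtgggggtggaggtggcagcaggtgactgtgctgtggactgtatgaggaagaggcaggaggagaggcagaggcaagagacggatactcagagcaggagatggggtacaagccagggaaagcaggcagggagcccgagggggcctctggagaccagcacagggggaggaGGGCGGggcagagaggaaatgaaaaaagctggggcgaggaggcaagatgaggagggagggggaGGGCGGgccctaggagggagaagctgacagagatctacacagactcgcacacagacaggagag
Ptgfr (chr3:151837479-151837778, minus strand): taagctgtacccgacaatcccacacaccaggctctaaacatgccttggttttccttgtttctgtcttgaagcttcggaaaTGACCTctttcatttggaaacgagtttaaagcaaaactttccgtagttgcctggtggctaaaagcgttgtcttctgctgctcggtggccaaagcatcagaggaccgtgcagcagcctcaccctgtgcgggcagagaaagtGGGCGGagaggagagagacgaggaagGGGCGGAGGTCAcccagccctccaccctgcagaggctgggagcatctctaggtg

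The Ptger2 window held 2 matches to AGAACA, at positions -52 and 11 counted from the start, and no GC box, with a GC content of 37.7% against a median of 52.7% over the 32851 mouse promoters. The Ptger3 window, at 64% GC, held 3 GC boxes, and the Ptgir window, at 62%, held 2. The Ptgfr window held 2 matches to AGGTCA, at -170 and 3, and 2 GC boxes. Of all promoters of this length, 19% held AGAACA, 16.3% held AGGTCA and 35.7% held a GC box, so such matches are common. None of these 4 windows held TGACGTCA, TGACG, CAAGGTCA or TATAAA, which 1.79%, 20.8%, 1.56% and 13.6% of all promoters held. Among the other 5 windows, Ptgs2 held 1 TGACG and Ptgs1 and Ptges 1 AGAACA each. Hpgd held TATAAA at position 5, and Ptgs2, Ptges, Hpgd and Ptger4 each held at least 1 GC box.

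QuantSeq was used, a method in which each read comes from near the 3′ end of a polyadenylated transcript. The tables of 6 libraries hold read counts, with totals of 6908790 and 9491691 in saline and between 9601312 and 12308982 in the other 4. Day 3 replicate 1 was deposited as log2 values instead, so its depth is not given. Levels are therefore written as normalized counts, which are values scaled to a library of 11003222 reads and quantile-normalized over the 7 libraries, and they compare libraries for 1 gene, not genes with each other. All 9 uterine markers (Pgr, Esr1, Hoxa10 and others) had reads in every library. Day 8 replicate 1 is labelled Day 8 and was kept there, but its table bears a Day 3 name. Ovary markers, 9 genes such as the steroid enzymes Hsd3b1 and Cyp11a1, summed to 2228 and 12811 normalized counts in saline, 107 and 153 at Day 3, and 1099, 37985 and 144 at Day 8 (replicates 1, 2 and 3). Day 8 replicate 2 and saline replicate 2 had the highest sums, and results that rest on these libraries are given with and without them. Saline replicate 1 and Day 8 replicate 1 lay between them and the rest. Adipocyte markers, 7 genes, summed to 11133 and 31544 in saline, 28810 and 3322 at Day 3, and 2669, 4222 and 2870 at Day 8. Of these 7, 7 were called lower at Day 8 than in saline, beside 1.42% of all genes. The part of fat content in the results was not tested. The 6 count libraries served to test Day 8 against saline, with the quasi-likelihood test of edgeR. Day 3 was compared with saline, and Day 8 with Day 3, by limma on the log2(normalized count + 1) scale, which understates changes of low genes. A gene was called, as by the study's thresholds, at a fold of 2 with an unadjusted P under 0.05, and separately by an adjusted p under 0.1.

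At Day 8 the receptors Ptger2, Ptger3 and Ptgir were called higher than at Day 3, by 9.97-fold, 2.49-fold and 2.89-fold. Their adjusted p by limma was 0.65, 0.69 and 0.65, and the Ptger3 call was lost in 6 of 12 alternatives. All 5 member receptors lay above both Day 3 libraries in every Day 8 library, as 15.6% of genes did. Ptger1, an EP receptor outside the members, lay below both Day 3 libraries in every Day 8 library. At Day 3 Ptgir was called lower than in saline, at 0.348 of its level (adjusted p = 0.62 by limma). Against saline at Day 8, no member was called. The 5 enzymes were called in none of the comparisons in which they were tested. In bulk tissue, fewer cells of a type and less RNA per cell cannot be told apart.

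In numbers, 0 of 10 members were called between Day 8 and saline, where 2.94% of 15388 genes were, 1.53% higher and 1.42% lower. Between Day 3 and saline, 1 of 9 tested members was called, in the lower direction, where 4.53% of 14974 genes were called, 1.91% higher and 2.62% lower. Ptgs2 was left out of both limma comparisons by the filter on low values. Between Day 8 and Day 3, 3 of 9 were called, all higher, where 4.68% of genes were called, 2.28% higher and 2.40% lower. By the adjusted p no gene was called in any of the 3 comparisons, and the smallest adjusted p over all genes was 0.956 by edgeR for Day 8 against saline and 0.625 and 0.268 by limma for the other comparisons. Among the members the smallest was 0.96 by edgeR, and 0.62 and 0.65 by limma. DESeq2 called 49 genes by the adjusted p for Day 8 against saline, none of them a member, and 2 members, Ptger2 and Ptger3, by the fold and the unadjusted P. At an unadjusted P under 0.05 alone, 4.28%, 7.36% and 7.19% of genes passed in these comparisons. The members' median log2 fold change was 0.30 for Day 8 against saline, -0.38 for Day 3 against saline and 0.83 for Day 8 against Day 3, beside -0.01, 0.01 and 0 over all genes tested. In the last comparison the median was 1.53 for the 5 receptors, -0.02 for the 4 tested enzymes and -0.36 for 6 further receptors and receptor partners, of which 1 was positive, and the difference between these lists was not tested. By ranges, 6 of 10 members had all Day 8 libraries above both Day 3 libraries, where 15.6% of genes did, and none had them all below, as 16.0% did. Such separation was common between Day 3 and saline, at 46.4% of genes, and 5 of 10 members had both Day 3 libraries below both saline libraries, where 22.4% of genes did, and none above, where 24.0% did. Only Ptgs1 had all Day 8 libraries below both saline libraries, as 9.51% of genes did, and no member had them above, as 9.27% did. The comparisons share libraries, so these counts are not independent of each other. Leaving out a saline or a Day 3 library leaves 1 library in that group, which is then assumed to vary like the other groups, here and wherever such a value is given. Leaving out single libraries moved the count of 3 members to 4 without Day 8 replicate 1, to 2 without Day 3 replicate 1, Day 8 replicate 2 or Day 8 replicate 3, and to 1 without Day 3 replicate 2.

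**Figure D1:**
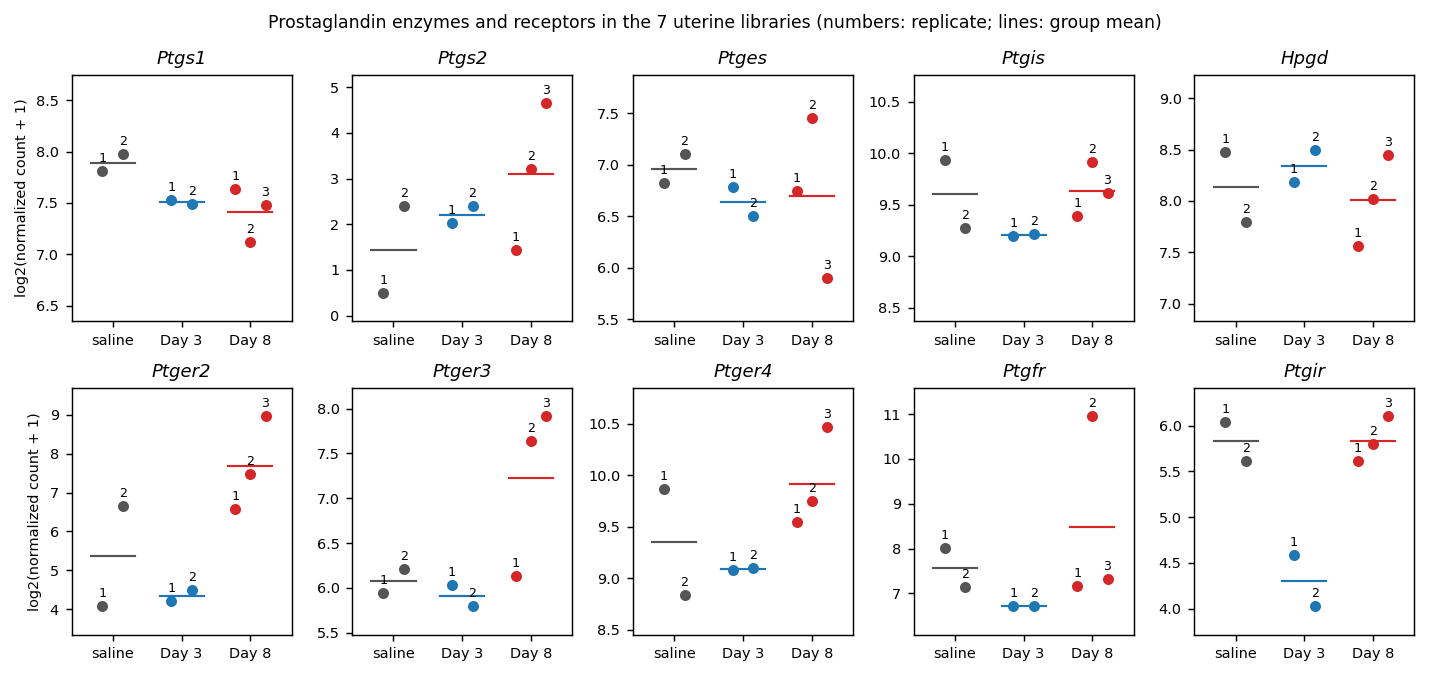
Each panel plots 1 gene as log2(normalized count + 1) on its own vertical scale in the 2 saline, 2 Day 3 and 3 Day 8 libraries, with points numbered by replicate and lines at group means. The Day 8 points of the 5 receptors in the lower row lie above both Day 3 points, and Ptgfr has 1 Day 8 library, replicate 2, far above all others.

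**Figure D2:**
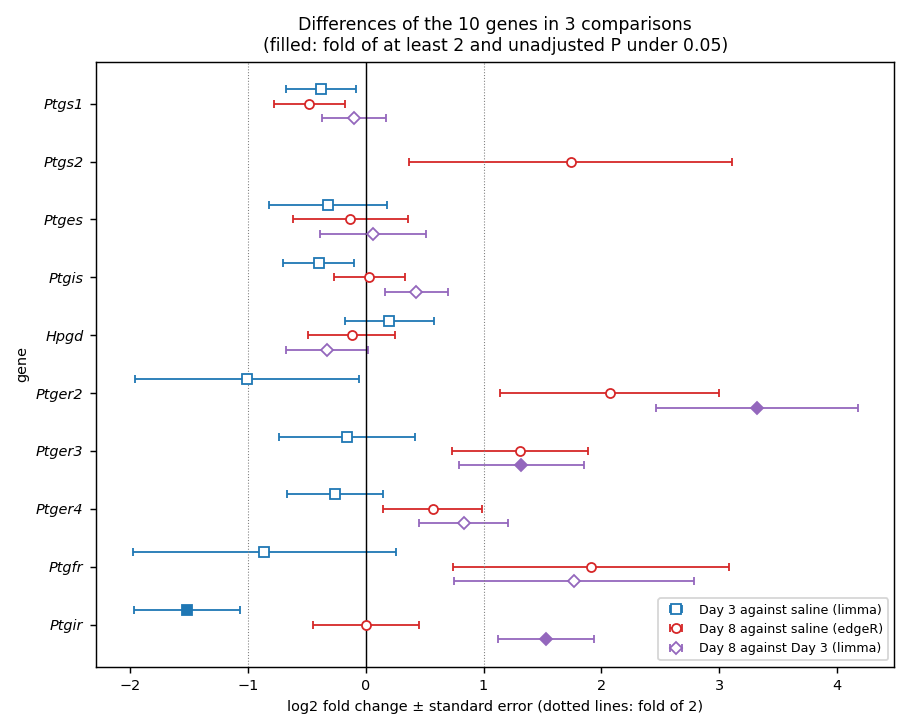
The horizontal axis gives the log2 fold change of each gene with its standard error for Day 3 against saline (squares, limma), Day 8 against saline (circles, edgeR) and Day 8 against Day 3 (diamonds, limma), filled where the fold was at least 2 with an unadjusted P under 0.05. Ptgir at Day 3 and Ptger2, Ptger3 and Ptgir between Day 8 and Day 3 are filled, and Ptgs2 has a value in 1 comparison alone.

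The cyclooxygenase genes differed in level and pattern. Ptgs1 (chr2:36230426-36252272, plus strand, GRCm38), the constitutive cyclooxygenase, had 223 and 251 normalized counts in saline, 184 and 179 at Day 3, and 198, 138 and 177 at Day 8. Both treated groups lay below saline and overlapped each other. Its log2 fold change was -0.48 (standard error 0.30) at Day 8 and -0.38 (standard error 0.30) at Day 3, and neither passed the thresholds. Ptgs2 (chr1:150100031-150108227, plus strand), the inducible cyclooxygenase that acts at the implantation site, was near the limit of detection in most libraries. It had 1 and 5 reads in saline, 3 in Day 3 replicate 2, and 1, 11 and 21 at Day 8. The groups overlapped, and 3 of the 6 count libraries were at or under the 3 reads taken as the floor, which is between 0.244 and 0.434 CPM, counting error only. The saline mean was 0.303 ± 0.256 CPM (SD, n = 2), the Day 8 mean was 1.08 ± 1.05 CPM (SD, n = 3), and the log2 fold change was 1.74 (standard error 1.37) by edgeR. With these counts and this spread between the Day 8 libraries, no difference of Ptgs2 was called.

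The terminal synthases and the breakdown enzyme were called in no comparison. Ptges (chr2:30889471-30929863, minus strand), the inducible prostaglandin E synthase, had 112 and 137 normalized counts in saline, 109 and 89.4 at Day 3, and 106, 174 and 58.9 at Day 8. The Day 8 libraries spanned the saline range on both sides, and the log2 fold change was -0.13 (standard error 0.49). Ptgis (chr2:167191805-167240604, minus strand), prostacyclin synthase, had 979 and 617 in saline, 584 and 594 at Day 3, and 668, 965 and 780 at Day 8. Its Day 8 libraries lay above the Day 3 libraries and inside the saline range, with a log2 difference of 0.43 from Day 3 (standard error 0.27). Hpgd (chr8:56294585-56321043, plus strand), the dehydrogenase that inactivates prostaglandins, had 356 and 221 in saline, 290 and 360 at Day 3, and 188, 258 and 348 at Day 8. All 3 groups overlapped, and its log2 fold changes were 0.20 (standard error 0.38) at Day 3 and -0.12 (standard error 0.37) at Day 8. The intervals of 2 standard errors at Day 8 were -1.12 to 0.86 for Ptges, -0.57 to 0.63 for Ptgis and -0.86 to 0.62 for Hpgd. In this fit a change of Ptgis or Hpgd by a fold of 2 lies outside them. For Hpgd this did not hold in every alternative. It was at -0.37 (standard error 0.43) without Day 8 replicate 3, where 2 standard errors reach past a fall by a fold of 2.

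Ptger2 (chr14:44988195-45003820, plus strand), which encodes the EP2 receptor and whose promoter is the first printed above, showed the widest range of the members, with a 29.3-fold span over the 7 libraries. It had 15.9 and 99.7 normalized counts in saline, 17.7 and 21.4 at Day 3, and 94.2, 178 and 496 at Day 8. Every Day 8 library was above both Day 3 libraries, while saline replicate 2 lay inside the Day 8 range and saline replicate 1 below Day 3. The group means were 57.8 ± 59.2 in saline (SD, n = 2), 19.5 ± 2.59 at Day 3 (SD, n = 2) and 256 ± 212 at Day 8 (SD, n = 3). Day 8 exceeded Day 3 by 3.32 on the log2 scale (standard error 0.86, adjusted p = 0.65 by limma with Benjamini-Hochberg adjustment). This difference was past the fold and the unadjusted P in all 12 alternatives, at 2.66 to 3.87, with an adjusted p by limma or edgeR between 0.10 and 1 in them. Against saline the log2 fold change at Day 8 was 2.07 (standard error 0.93, adjusted p = 0.96 by edgeR), past the fold and short of the unadjusted P. This value depended on which saline library was kept, at 3.87 and called without saline replicate 2, and at 1.31 and not called without saline replicate 1. Day 3 against saline gave -1.01 (standard error 0.95), which turned to 0.27 without saline replicate 2.

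Ptger3 (chr3:157566892-157645888, plus strand), the gene of the EP3 receptor, had 60.3 and 73.2 normalized counts in saline, 64.3 and 54.5 at Day 3, and 69.1, 198 and 240 at Day 8. Day 8 replicates 2 and 3 stood above the other 5 libraries, and Day 8 replicate 1 lay within the saline range. The log2 difference was 1.32 against Day 3 (standard error 0.53, adjusted p = 0.69 by limma) and 1.31 against saline (standard error 0.58, adjusted p = 0.96 by edgeR), and the second was past the fold and short of the unadjusted P. The call against Day 3 was lost in 6 of 12 alternatives, among them leaving out Day 3 replicate 1 (1.43), Day 3 replicate 2 (1.19), Day 8 replicate 2 (1.12) or Day 8 replicate 3 (0.97). Without Day 8 replicate 1, whose table is named for Day 3, Ptger3 was at 1.86 against Day 3 and at 1.69 against saline, and both were called. Without that library Ptger2 was also called against saline, at 2.46, so that 2 members were called in place of 0.

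Ptger4 (chr15:5206661-5244187, minus strand), the gene of the EP4 receptor, had 930 and 455 normalized counts in saline, 539 and 546 at Day 3, and 744, 860 and 1414 at Day 8. The Day 8 libraries were all above Day 3, the saline libraries were on either side of Day 3, and saline replicate 1 lay inside the Day 8 range. Its log2 difference between Day 8 and Day 3 was 0.83 (standard error 0.38, adjusted p = 0.70 by limma), short of the thresholds, and it passed them without Day 8 replicate 1, at 1.02. Against saline it was 0.57 (standard error 0.42) at Day 8 and -0.26 (standard error 0.41) at Day 3. The remaining EP receptor, Ptger1, is no member. It had 70.3 and 61.9 normalized counts in saline, 73.7 and 85.9 at Day 3, and 70.3, 45.1 and 50.6 at Day 8. All Day 8 libraries of Ptger1 lay below both Day 3 libraries, as 16.0% of genes did. Ptger1 was named after its values were seen, and it was called in no comparison.

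Genes known to respond to ovarian hormones also differed between Day 8 and Day 3. Of 11 genes known to be induced by progesterone in the uterus, 5 of 10 tested were called higher at Day 8 than at Day 3 and 0 lower. Of 12 genes listed here as induced by oestrogen, 0 of 11 tested were higher and 7 lower. Over all genes, 2.28% were called higher and 2.40% lower. Both lists were chosen with earlier results of these data known, so these counts only describe the libraries. The 4 genes of these lists given next were picked after their values were seen, as a pair that parted Day 8 replicates 2 and 3 from the other libraries and a pair that went another way. Calca, a progesterone-induced gene, had 0 and 1.58 normalized counts in saline, 1.81 and 2.85 at Day 3, and 1.69, 50.4 and 55.6 at Day 8. Lcn2, an oestrogen-induced gene, had 1120 and 2020 in saline, 4008 and 3755 at Day 3, and 2703, 80.3 and 91.0 at Day 8. Day 8 replicates 2 and 3 were thus apart from the other 5 libraries in both genes, as they were for Ptger3. Of the pair, Lcn2 was called lower at Day 8 than at Day 3, at -3.83 on the log2 scale, and Calca was not called, at 2.59. Clca3a1, of the oestrogen-induced list, had 13.5 and 29.7 in saline, 66.1 and 85.9 at Day 3, and 27.8, 123 and 193 at Day 8, and was called higher against saline at 2.31 on the log2 scale. Nr2f2, of the progesterone-induced list, had 10394 and 2549 in saline, 2310 and 2691 at Day 3, and 3104, 3898 and 4400 at Day 8, and was called in no comparison. Clca3a1 was thus highest, not lowest, in Day 8 replicates 2 and 3, and Nr2f2 was highest in saline replicate 1. Clca1, also of the oestrogen-induced list, was named after its values were seen. It had 954 and 990 in saline, 2261 and 1854 at Day 3, and 1961, 4.25 and 14.9 at Day 8. Like Lcn2, Clca1 was called lower at Day 8 than at Day 3, at -5.23 on the log2 scale. The summed level of the progesterone-induced list was 4986 to 12045 normalized counts in saline, 3895 to 4420 at Day 3 and 5431 to 14485 at Day 8, and that of the oestrogen-induced list was 12752 to 15086, 16488 to 18579 and 3677 to 10848. In saline replicate 1, Nr2f2 alone held 10394 of the 12045 of the progesterone-induced list. That list's median of log2 values centred on each gene's mean was lowest in saline replicate 1, at -1.04. Smooth muscle markers, 9 genes, summed to 40202 and 21840 in saline, 34495 and 42319 at Day 3, and 21436, 50731 and 48671 at Day 8. Of these, 0 were called between Day 8 and Day 3. Mast cell markers, 7 genes, summed to 143 and 225 in saline, 243 and 163 at Day 3, and 119, 650 and 560 at Day 8. Of the 5 tested, 1, Mcpt4, was called higher at Day 8 than at Day 3, and 1 or 2 of the 7 had no read in each library. Immediate early genes, 12 that respond fast to stimulation, summed to 4141 and 2527 in saline, 2912 and 3229 at Day 3, and 2955, 5981 and 6600 at Day 8, with 1 of 12, Jun, called higher at Day 8 than at Day 3. The smooth muscle, mast cell and immediate early sums were all highest in Day 8 replicates 2 and 3. The part of hormone state, muscle content, mast cells or immediate early genes in the receptor differences was not tested.

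**Figure D3:**
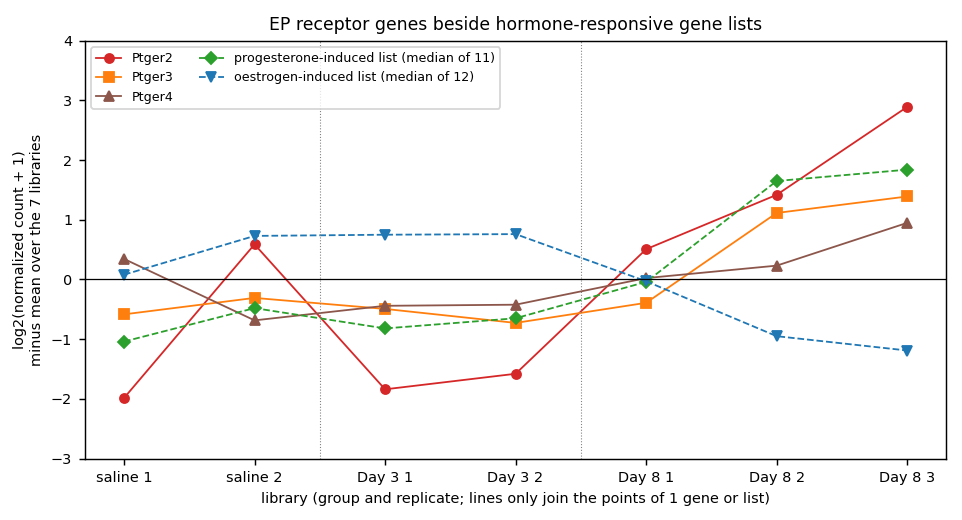
The vertical axis gives log2(normalized count + 1) minus its mean over the 7 libraries for Ptger2, Ptger3 and Ptger4 (solid lines) and the median of the same quantity over 11 progesterone-induced and 12 oestrogen-induced genes (dashed lines), by library. In Day 8 replicates 2 and 3 the progesterone-induced list was at 1.65 and 1.84 and the oestrogen-induced list at -0.95 and -1.19, while Day 8 replicate 1 was at -0.04 and -0.03.

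Ptgfr (chr3:151796502-151837630, minus strand), the prostaglandin F2α receptor gene, was high in 1 library. It had 256 and 141 normalized counts in saline, 104 and 105 at Day 3, and 143, 1979 and 160 at Day 8. Day 8 replicate 2 held 2134 reads against 110 and 145 in the other Day 8 libraries, so the Day 8 mean of 761 ± 1055 (SD, n = 3) describes none of them. The log2 fold change against saline was 1.91 (standard error 1.17, adjusted p = 0.96 by edgeR), and it was -0.38 without Day 8 replicate 2. Against Day 3 it was 1.77 (standard error 1.02) with that library and 0.54 without it. Day 3 lay below saline in both libraries, at -0.86 (standard error 1.12).

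The library with the high Ptgfr value was also the highest in ovary markers. Hsd3b1, which makes progesterone, had 815 and 8535 normalized counts in saline, 0.497 and 0 at Day 3, and 652, 23089 and 5.52 at Day 8. Lhcgr, the luteinizing hormone receptor gene, had 409 in Day 8 replicate 2, 39.5 in saline replicate 2 and under 1 in the other 5 libraries. Of the 9 ovary markers, 5 and 6 had no read in the Day 3 libraries, 0 and 1 in saline, and 2, 1 and 3 at Day 8. In Day 8 replicate 3 the markers at 0 were Lhcgr, Fshr and Amh. Saline replicate 2, with the second highest sum of these markers, had 141 normalized counts of Ptgfr against 256 in saline replicate 1. Akr1c18, which inactivates progesterone in the corpus luteum and also belongs to the aldo-keto reductases that act on prostaglandins, had 301 in saline replicate 2, 812 in Day 8 replicate 2 and at most 16.4 elsewhere. It was picked after its values were seen. Whether ovarian tissue contributed to the Ptgfr reads of Day 8 replicate 2 was not tested.

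**Figure D4:**
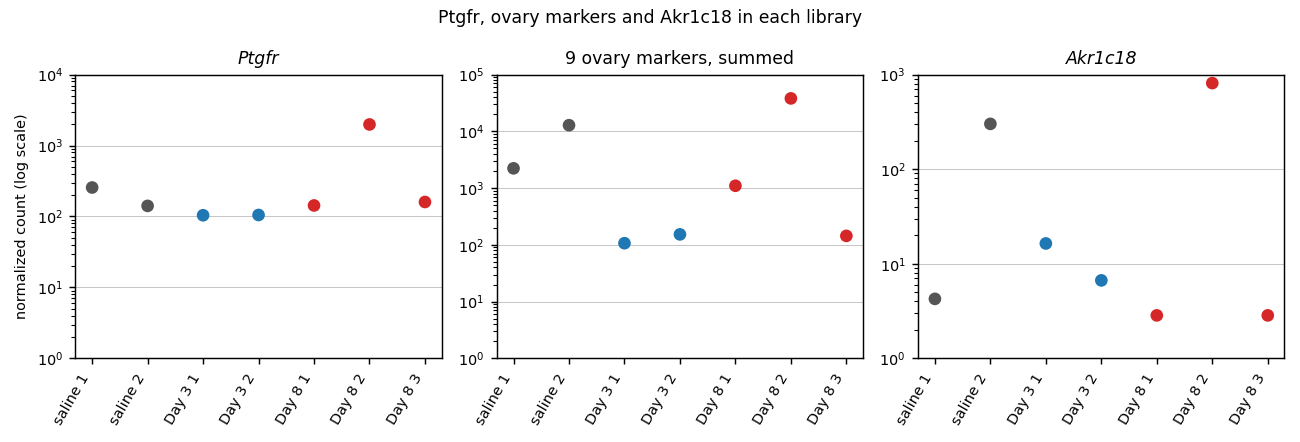
Normalized counts on log axes for Ptgfr, for the sum of 9 ovary markers and for Akr1c18 in each of the 7 libraries, with points coloured by group. All 3 are highest in Day 8 replicate 2, and the markers and Akr1c18 are second highest in saline replicate 2, where Ptgfr is at 141.

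Ptgir (chr7:16906490-16910905, plus strand), which encodes the prostacyclin receptor IP, was low at Day 3 relative to both other groups. It had 64.7 and 48.1 normalized counts in saline, 23 and 15.3 at Day 3, and 48, 54.5 and 67.7 at Day 8. Both Day 3 libraries were below all the others, and saline and Day 8 overlapped. The means were 56.4 ± 11.7 in saline (SD, n = 2), 19.2 ± 5.48 at Day 3 (SD, n = 2) and 56.7 ± 10 at Day 8 (SD, n = 3). Day 3 differed from saline by -1.52 on the log2 scale (standard error 0.45, adjusted p = 0.62 by limma) and Day 8 from Day 3 by 1.53 (standard error 0.41, adjusted p = 0.65 by limma). Day 8 against saline was 0 (standard error 0.45), with an interval of 2 standard errors from -0.90 to 0.90. Both calls rested on Day 3 replicate 2, which held 12 reads. Without it the Day 3 difference from saline was -1.23 and the Day 8 difference from Day 3 was 1.24, both past the fold and short of the unadjusted P. Counting Day 8 replicate 1 with Day 3 also ended the call against saline, at -1.09.

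Markers of cells that can carry the prostacyclin receptor did not all follow the same course. Macrophage markers, 9 genes, summed to 5301 to 9304 normalized counts in saline, 3211 to 4030 at Day 3 and 2926 to 6662 at Day 8. Of these, 3 of 9 were called lower at Day 3 than in saline, beside 2.62% of all genes. Both Day 3 libraries lay below both saline libraries in 8 of 9 macrophage markers and 4 of 8 endothelial markers, as in 22.4% of genes. Endothelial markers, 8 genes, summed to 2056 to 2982 in saline, 2316 to 2604 at Day 3 and 2072 to 3924 at Day 8, and 0 of 8 were called at Day 3. Every macrophage, endothelial and smooth muscle marker had reads in every library. Day 8 replicate 1 had the lowest macrophage sum, at 2926, beside 48 normalized counts of Ptgir. The part of these cells in the Ptgir difference was not tested.

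Outside the 10 genes, 36 further genes of the pathway were found in the tables, and 1 of them, Pla2g10, was called. It was 1 of 33 tested against saline and 1 of 32 against Day 3, beside 2.94% and 4.68% of all genes. This secreted phospholipase, which releases fatty acids such as arachidonic acid, had 8.08 and 11.5 normalized counts in saline, 4.36 and 9.24 at Day 3, and 71.4, 96.6 and 230 at Day 8. All Day 8 libraries were above all the others. The log2 difference was 3.99 against Day 3 (standard error 0.63, adjusted p = 0.51 by limma) and 3.58 against saline by edgeR (standard error 0.71, adjusted p = 0.96), and Day 3 against saline was -0.52 (standard error 0.69). It was past the thresholds in all 12 alternatives against Day 3, at 3.25 to 4.54, and in all 13 in which it was tested against saline, at 2.92 to 3.89. Its adjusted p against saline ranged from 0.0016, by DESeq2, to 1 over these alternatives. Among the 8 tested genes of arachidonate release, Pla2g10 was the 1 called, and none of 11 further terminal synthases, 7 transport and breakdown genes or 7 further receptors and partners was called in any comparison. The median log2 fold change of all the further pathway genes tested was 0.07 for Day 8 against saline (33 genes), 0.11 for Day 3 against saline (32 genes) and -0.01 for Day 8 against Day 3 (32 genes).

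None of the 5 further pathway genes with the highest levels was called with all libraries in the fit. Ptges3, a chaperone partner that also has prostaglandin E synthase activity, was at 3085 ± 955 normalized counts in saline (SD, n = 2), 3577 ± 22.4 at Day 3 (SD, n = 2) and 2755 ± 867 at Day 8 (SD, n = 3). Pla2g16, a phospholipase of adipose tissue, was at 1334 ± 434, 1458 ± 513 and 1932 ± 558. Ptgfrn, which binds the FP receptor, was at 849 ± 36.9, 695 ± 11.4 and 752 ± 61.9. Ptgr1, a reductase of prostaglandin breakdown, was at 417 ± 213, 587 ± 85.5 and 638 ± 102, and without saline replicate 2 it was called against saline at 1.13 on the log2 scale at Day 3 and 1.25 at Day 8. Cbr1, a carbonyl reductase that converts prostaglandin E2 to F2α, had 1249 and 610 in saline, 593 and 600 at Day 3, and 920, 1044 and 1007 at Day 8. Its Day 8 libraries lay above Day 3, and the log2 difference of 0.73 (standard error 0.31) was past the unadjusted P and under the fold of 2. Against saline, Cbr1 at Day 3 was at -0.55 with all libraries and called at -1.07 without saline replicate 2. Slco3a1, a prostaglandin transporter named after its values were seen, was likewise short of the fold, with 522 and 599 in saline, 302 and 280 at Day 3, and 544, 650 and 413 at Day 8. It differed by -0.94 between Day 3 and saline (standard error 0.28) and by 0.85 between Day 8 and Day 3 (standard error 0.26).

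**Figure D5:**
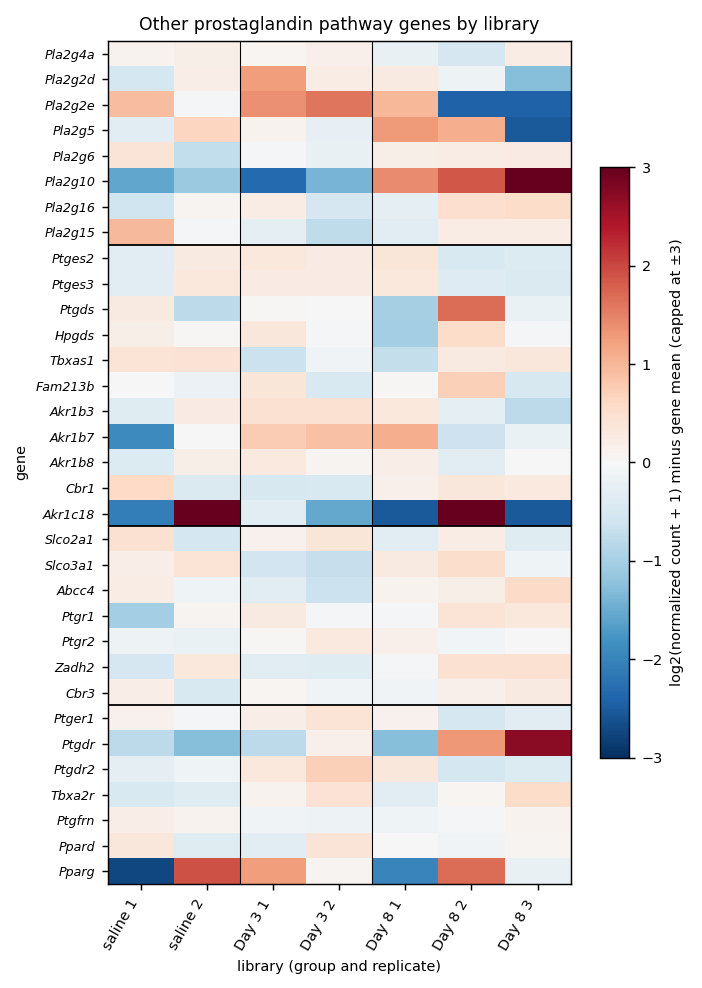
Colour gives log2(normalized count + 1) minus the gene's mean over the 7 libraries, capped at 3 in both directions, for the 33 further pathway genes with at least 10 normalized counts in a library, with lines between the lists for arachidonate release, terminal synthases, transport and breakdown, and receptors and partners. Pla2g10 is above its mean in all 3 Day 8 libraries and below it in the other 4, and Akr1c18 is high in saline replicate 2 and Day 8 replicate 2.

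The genes whose profile over the 7 libraries was nearest to Ptger2 and Ptgfr, the members with the widest spans, were found by the root mean square difference of log2 values centred on each gene's mean. For Ptger2, whose values spanned 4.87 on the log2 scale, they were Lrp2, an endocytic receptor and one of the progesterone-induced list, at 0.52, BC030500 at 0.60 and Wfdc3 at 0.65. Lrp2 had 9.24 and 80.3 normalized counts in saline, 30.5 and 33.1 at Day 3, and 94.2, 243 and 783 at Day 8. Like Ptger2, it was lowest in saline replicate 1 and highest in Day 8 replicate 3. For Ptgfr, whose values spanned 4.24, they were Nrcam at 0.42, Kcnk3 at 0.42 and Scarb1, a lipoprotein receptor, at 0.44. Scarb1 had 609 and 482 in saline, 349 and 366 at Day 3, and 403, 3234 and 741 at Day 8. These distances describe the 7 libraries, which share 1 normalization.

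The annotation of GENCODE M21 (GRCm38) gave the gene positions above, all 10 genes being protein-coding. No word of 50 bases in the last 500 bases of any member's transcripts was shared with transcripts of another gene read in sense. The reverse complement was not searched, so sharing with genes on the other strand is not covered. Ptges and Hpgd overlap a predicted gene on the same strand, and Ptgs1, Ptgis, Ptger2, Ptger4 and Ptgfr overlap genes on the other strand. Whether the counting used strand is not given in the sources used here, so reads of such partners cannot be told apart from those of the members.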

How the data were processed

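QuantSeq 3′ mRNA libraries of mouse uterus were sequenced on a NextSeq 500. Per the paper's methods, Bowtie2 served for alignment, and the authors took counts from unique and multiple alignments by Bedtools coverage before quantile normalization in edgeR. The submitters' processing notes list the builds hg19 and mm10 without a role, and versions are not given in the sources used here. The tables that the authors deposited hold raw read counts for 6 libraries, with no scaling. The deposited table of Day 3 replicate 1 holds log2 values. With the log undone and a factor of 1.0515 divided out, 97.2% of 3661 low values were within 0.1 of a whole number, where an even spread gives 20%. Columns without a sample were 0 in number.

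The members, lists and tests were chosen with earlier results of these data known. For Day 8 against saline, edgeR 4.0.16 was run on the 6 count libraries in 3 groups (TMM, filterByExpr, glmQLFit, glmQLFTest), which left 3 residual degrees of freedom and 15388 genes. For comparisons with Day 3, limma 3.58.1 was run on 7 libraries (lmFit, then eBayes with a mean trend, 4 residual degrees of freedom) on quantile-normalized log2(scaled count + 1) for 14974 genes with a scaled value of at least 10 in at least 2 libraries. Standard errors of edgeR are the log2 fold change over the square root of F. The 35 symbols on more than one row were kept apart. Totals were 6908790 to 12308982 counts, which puts the floor of 3 counts at 0.244 to 0.434 CPM for counting error only. The common biological coefficient of variation was 42.2%. Both tests were tested on simulated data. Under R 4.3.3, DESeq2 1.42.0 was one of the alternatives, which also changed filters, normalization, pseudocount, the group of Day 8 replicate 1 and the libraries kept. Named were all members, further pathway genes past the thresholds or among the 5 highest mean levels, marker genes beside a member they moved with, and the 3 genes nearest to each of the 2 members of widest span. Others were named after their values were seen.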

Additional observations from a re-analysis of the deposited data

Results flagged for a closer look

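By the unadjusted thresholds, some genes differed between Day 8 and Day 3. The same 2 undated saline libraries served both days, so saline cancels in this limma comparison. Time since surgery and any difference in oestrous stage do not cancel, and cannot be told apart here from the effect of CXCL12. Ptger2 passed the thresholds at a log2 difference of 3.32, Ptger3 at 1.32, Ptgir at 1.53 and Pla2g10 at 3.99, while the adjusted p by limma was 0.65, 0.69, 0.65 and 0.51. Ptger2 and Pla2g10 lay above both Day 3 libraries in 3 of 3 Day 8 libraries, as did Ptger3 and Ptgir, while Day 8 replicate 1 was the lowest Day 8 library for each of the 4 genes.

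In Ptger4 and Cbr1 the 2 Day 3 libraries were below the saline mean and the 3 Day 8 libraries above it. This pattern was looked for among the members and named pathway genes alone, and its share over all genes was not computed. Ptger4 was at -0.27 and -0.25 on the log2 scale at Day 3 and at 0.19, 0.40 and 1.12 at Day 8, a difference of 0.83 (adjusted p = 0.70 by limma) that missed the thresholds. Cbr1 was at -0.56 and -0.54 at Day 3 and at 0.08, 0.26 and 0.21 at Day 8, a difference of 0.73 (adjusted p = 0.69 by limma) that was past the unadjusted P and under the fold of 2. The saline libraries were far apart in both genes, at 930 and 455 normalized counts for Ptger4 and 1249 and 610 for Cbr1.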

How the results depend on the processing

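With 2 or 3 libraries in a group and 1 without counts, the number of genes at a fold of 2 and the unadjusted P depended on the libraries kept. Leaving out single libraries gave 229 to 1527 genes in place of 453 for Day 8 against saline, 230 to 2843 in place of 678 for Day 3 against saline and 280 to 1678 in place of 701 for Day 8 against Day 3. Those without a saline or Day 3 library keep 1 in that group, assumed to vary like the others. By the adjusted p the fits gave 0 to 15, 0 to 2344 and 0 to 478 genes in place of 0. Members called higher at Day 8 were 0 to 2 against saline and 1 to 4 against Day 3, and members called lower at Day 3 were 0 to 2.

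Counting Day 8 replicate 1 with Day 3 gave 1094 and 1816 genes for Day 8 against saline and against Day 3, and 58 and 1380 by the adjusted p. It gave 3 members called higher against saline and 0 called lower at Day 3. It turned Hpgd to 0.08, -0.06 and 0.15 in the comparisons of Day 8 with saline, Day 3 with saline and Day 8 with Day 3, and Pla2g10 to 0.57 for Day 3 against saline. For Day 8 against saline, DESeq2 called 49 genes by the adjusted p, and 2 members were called higher by DESeq2, by no filter on low counts and by edgeR on 7 libraries with counts estimated for Day 3 replicate 1, an alternative chosen after seeing the data. Quantile normalization with limma called 1. Without quantile normalization, 1050 genes passed for Day 3 against saline and Hpgd was at -0.06. Without the filter on low values, 37 and 28 genes passed the adjusted p for Day 3 against saline and Day 8 against Day 3, and with the compared groups alone 3 passed in the latter. The cause was not tested for any of these.

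Libraries of the same replicate number deviated from their group means with correlations between -0.16 and -0.01 across genes. In a group of 2 libraries the deviations mirror each other by construction. These correlations therefore cannot decide whether the numbers pair the libraries. With the number as a replicate block, 157 genes passed for Day 8 against saline, 578 for Day 3 against saline and 429 for Day 8 against Day 3, 1 member was called higher against saline and 2 against Day 3, and Ptges and Ptges3 were at 0.14 and 0.10 for Day 8 against saline.

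Without single libraries, some differences changed sign. For Day 8 against saline the ranges were -0.25 to 0.65 for Cbr1, -0.39 to 0.22 for Hpgd, -0.61 to 0.18 for Ptges, -0.37 to 0.41 for Ptges3, -0.21 to 0.34 for Ptgis and -0.38 to 2.40 for Ptgfr. For Day 3 against saline they were -0.14 to 0.55 for Hpgd, -0.24 to 0.48 for Pla2g16, -2.32 to 0.27 for Ptger2, -0.78 to 0.25 for Ptger4 and -0.07 to 0.57 for Ptges3. For Day 8 against Day 3 they were -0.32 to 0.45 for Ptges, -0.04 to 0.26 for Ptgr1 and -0.22 to 0.04 for Ptgs1. Of these fits, 1 made a call, Ptger2 at -2.32 for Day 3 against saline without saline replicate 1. Ptgs2 had at most 21 reads in a count library.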
